A study of Gallus gallus with 2 samples.

Results

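Of 28190 gene columns counted in single cells of the posterior end of chicken embryos, 8 are followed here: the myogenic regulatory factors MYF5, MYOD1, MYOG and MYF6, the muscle intermediate filament gene DES, and the dermomyotome and migrating-precursor regulators DMRT2, SIM1 and LBX1. All 8 had a column. They were chosen by name, and a cell was taken to hold a gene when it had 2 or more molecules of it, among cell barcodes with at least 4000 gene molecules. Such cells are called MYF5 cells, DES cells and so on below, and cells with 2 or more molecules of at least 1 of the 4 regulatory factors are called MRF cells. The question was which cells held these genes and whether muscle differentiation could be detected at 35 somites.

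The embryos were wild type and were taken after 72 h of incubation, from a control group and from groups given homocysteine, an amino acid, as 20 uL of a 19 mM (high) or 0.5 mM (low) solution. Posterior tissue was brought to single cells with the enzyme mix Accutase (37 °C, 15 min), marked per tissue with lipid-anchored DNA barcodes at 200 nM (250000 cells each), and pooled for capture on the BD Rhapsody microwell system. The pool gave a whole-transcriptome library (600 GB stated) and a lipid barcode library (12 GB stated), deposited as 1 table. No label ties a barcode to a treatment, so control and treated embryos are not compared, and with 1 pooled sample there is no replicate check and no test.

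Skeletal muscle of the trunk arises from the somites, blocks of mesoderm that form in sequence from head to tail, so that the youngest lie at the posterior end. The dorsal somite becomes the dermomyotome, an epithelium that expresses PAX3 and PAX7, and its edges release precursors into the myotome. MYF5 and MYOD1 commit cells to the muscle lineage, MYOG drives their differentiation, MYF6 acts in the lineage as well, and contractile proteins follow. LBX1 marks precursors that leave the dermomyotome for the limbs and other distant muscles.

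The table held 60000 barcodes with unique cell indices. Of these, 15494 (25.8%) had at least 4000 gene molecules and held 94.0% of all gene molecules; their median was 25928.5, with a range from 4001 to 198554. Among them 3158 had more than 20% mitochondrial molecules. A further measure of free RNA came from the 33581 barcodes with fewer than 500 genes (median 383 molecules). Clustering without the 8 genes and without the muscle lists gave 31 clusters, of which 23 took a class name from listed markers. No cluster took the dermomyotome, sclerotome, neuron, heart or smooth muscle name. Cluster 8 (675 cells, median 8360 molecules, 46.0% mitochondrial) had PAX3, EYA1 and WNT11 past 2-fold, with a mean log2 ratio of -0.45 for the dermomyotome markers. It was left unnamed as shallow. Cluster 15, with 476 of the 584 intermediate mesoderm-like cells, was named on PAX2, OSR1 and WT1. Its mean log2 ratio for the markers of that class was -0.4. The somite-like class joined cluster 1 (1018 cells, median 25034.5 molecules), with the sclerotome gene NKX3-2 as well as DMRT2 among its 10 leading genes, and cluster 4 (768 cells), whose median of 56682 molecules was far above that of all cells. A molecule count per 1000000 gene molecules is written CPM. Intervals are exact at 95% and cover counting error only; gene length was not used, so levels are not ranked between genes.

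The muscle regulators were scarce. MYF5 and MYF6 lie beside each other on chromosome 1 of GRCg7b (MYF6 at 40093806 to 40095308, MYF5 at 40098411 to 40099891), with 3102 bases between them, and MYF6 overlaps the long non-coding gene LOC121109290. MYOD1 lies on chromosome 5 (11805090 to 11808553) and MYOG on chromosome 26 (1015042 to 1018541). MYF5 had 244 molecules in all, at most 7 in a cell, and 22 MYF5 cells (0.142% of cells, interval 0.089 to 0.215%). MYOD1 had 527 molecules, at most 20 in a cell, and 61 MYOD1 cells (0.394%, 0.301 to 0.505%). MYF6 had 1471 molecules, at most 9 in a cell, and 268 MYF6 cells (1.73%, 1.53 to 1.95%). MYOG had 32 molecules in 31 cells and a single MYOG cell, which held 2 (0.00645%, 0.000163 to 0.036%).

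In all, 336 cells (2.17%, 1.95 to 2.41%) were MRF cells. Of these, 321 held 1 of the 4 genes, 14 held 2 and 1 held 3. MRF cells were deeper than the rest, with a median of 46336.5 molecules. When every cell was thinned to 4000 molecules, 18 cells (0.116%) still qualified. Thinning removes most molecules of such deep cells, and 173 of the 268 MYF6 cells held just 2 MYF6 molecules. A large fall was therefore built in, and how far depth sets the count of MRF cells was not tested. The overall level of each gene lay close to that of free RNA. MYF5 stood at 0.506 CPM (0.444 to 0.573) in cells and 0.356 CPM (0.116 to 0.831) in free RNA, MYOD1 at 1.09 and 0.926 CPM, MYF6 at 3.05 and 3.56 CPM, and MYOG at 0.0663 and 0.0712 CPM. What sets the genes apart from free RNA is therefore read from how they were distributed among cells.

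**Figure D1:**
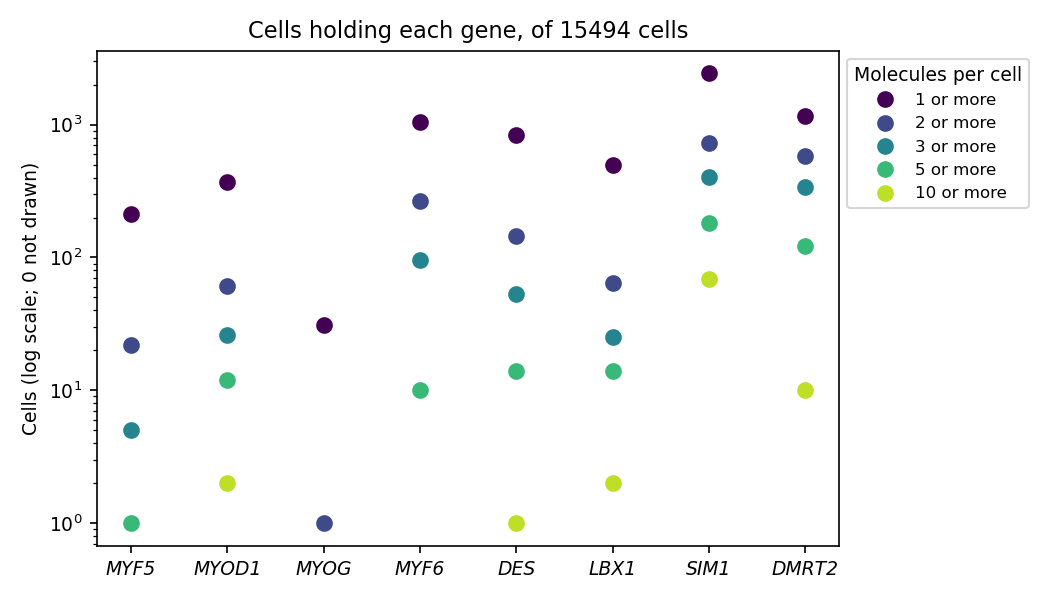
Number of cells (y axis, log scale) holding at least 1, 2, 3, 5 or 10 molecules of each gene, among 15494 cells. MYOG has 31 cells with a molecule and 1 cell with 2, while SIM1 has 733 cells with 2 or more and 69 with 10 or more.

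MYF5, an early determination factor, was found mainly with somite genes. Of the 22 MYF5 cells, 21 (95.5%, 77.2 to 99.9%) also held MEOX1, a homeobox gene of the somite, against 42.0% of other cells weighted to the same depths. PAX3 was held by 18 (81.8% against 33.0%), PAX7 by 19 (86.4% against 33.1%) and TCF15, a somite bHLH gene, by 18 (81.8% against 18.5%). DMRT2 was held by 12 (54.5%, 32.2 to 75.6%, against 6.74%) and MYF6 by 8 (36.4%, 17.2 to 59.3%, against 3.24%). By class, 16 of the 22 cells were somite-like. The level was 1.80 CPM (1.51 to 2.13) in somite-like cells and 0.983 CPM (0.601 to 1.52) in presomitic mesoderm-like cells, which come next among classes with more than 4 molecules; these intervals just overlap. Erythroid-like cells (224 cells, median 21408 molecules, against 36530.5 in somite-like cells) served as a reference class. It was not free of muscle genes: the sarcomere genes TMOD4 (10.1 CPM) and TCAP (1.34 CPM, on 7 molecules) were highest there. Erythroid-like cells held no MYF5 molecule, which allows a level of up to 0.706 CPM and a share of MYF5 cells of up to 1.63%. The share in somite-like cells was 0.896% (0.513 to 1.45%).

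The cell with the most MYF5 had 7 molecules and a depth of 109557. It also held 5 MYF6, 12 LBX1, 11 SIM1 and 49 PAX3 molecules, and no MYOD1 or MYOG. Of the genes held by at least 10% of MYF5 cells, the largest CPM ratios over other cells were those of UNCX (12.1, interval 6.2 to 21.4), a homeobox gene of the posterior somite, MYF6 (10.3, 7.28 to 14.1), IL17REL (10.3), KLHL31 (9.33), a kelch-like gene of muscle, and LBX1 (8.86). These ratios rest on 22 cells, and 4.94% of 16780 genes tested had a ratio of 2 or more in them.

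MYOD1, the other determination factor, was also found mainly with somite genes. Of 61 MYOD1 cells, 47 (77.0%, 64.5 to 86.8%) held MEOX1 against 37.2% of other cells at the same depths, 34 (55.7%) held PAX3 against 29.3%, and 8 (13.1%, 5.84 to 24.2%) held MYF6 against 2.81%. One cell held both MYOD1 and MYF5. The sclerotome gene NKX3-2 was held by 13 MYOD1 cells (21.3%, 11.9 to 33.7%) against 2.69%, and by 1 of 22 MYF5 cells (4.55% against 3.59%). The largest ratios were those of GSX2 (12.8, 8.25 to 19.1), ALDH1A3 (12.4, 10.6 to 14.5), a retinoic acid synthesis enzyme, NKX3-2 (8.39, 6.99 to 9.99), BMP3 (7.87) and FMOD (7.16), a matrix proteoglycan.

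Somite-like cells held 34 of the 61 MYOD1 cells, at 2.91 CPM (2.53 to 3.32), which was 3.81 times (3.18 to 4.54) the level in all other cells. The next classes, notochord-like (1.64 CPM, 0.708 to 3.23), erythroid-like (1.53 CPM, 0.661 to 3.02) and macrophage-like cells (1.28 CPM, 0.264 to 3.74), could not be told from one another, and their intervals reached into that of somite-like cells. Erythroid-like cells included 2 MYOD1 cells of 224 (0.893%, 0.108 to 3.19%). With 224 cells this interval is wide, and it holds both the share over all cells, 0.394%, and that in somite-like cells, 1.90% (1.32 to 2.65%). Limb bud mesenchyme-like cells (1547 cells, median 29633 molecules) had 0.0646% (0.00164 to 0.36%). Neural tube-like cells (1752 cells, median 35594.5, against 36530.5 in somite-like cells) had 0.342% (0.126 to 0.744%). Both lay below the somite-like interval, whereas the intervals of notochord-like and macrophage-like cells overlapped it. The cells with 20, 16 and 8 molecules were somite-like, with depths of 46064, 11617 and 44397, and of the next, both with 7, 1 was in lateral plate or splanchnic mesoderm-like cluster 19 and 1 in somite-like cluster 1. The first 3 had no molecule of MYOG, DES or ACTC1, the cardiac-type actin that early skeletal muscle also uses. The first held 1 molecule of TTN, a sarcomere gene. The cell with 7 MYOD1 molecules in cluster 1 also held 7 MYF6, 2 MYF5 and 1 ACTC1 molecules, and no MYOG or DES. The cell in cluster 19 held 1 MYF5 molecule and no MYF6, MYOG, DES or ACTC1.

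MYF6 was spread over the segmenting mesoderm. Its levels in somite-like cells (10.1 CPM, 9.35 to 10.8) and presomitic mesoderm-like cells (9.83 CPM, 8.52 to 11.3) could not be told apart. Neuromesodermal progenitor-like cells followed at 3.75 CPM (2.97 to 4.67), whose interval meets neither; erythroid-like cells had 0.574 CPM (0.118 to 1.68) and no MYF6 cell. Within the somite-like class the level was 16.1 CPM (14.6 to 17.6) in cluster 1 and 6.49 CPM (5.78 to 7.27) in the deeper cluster 4. Of 268 MYF6 cells, 164 were somite-like and 37 presomitic mesoderm-like. MEOX1 was held by 243 (90.7%, 86.5 to 93.9%, against 38.3%), PAX3 by 185 (69.0% against 30.7%), DMRT2 by 74 (27.6% against 5.56%) and SIM1 by 67 (25% against 7.93%). MYF5 was held by 8 of them and MYOD1 by 8, 2.99% in each case, against 0.164% and 0.581%. MESP1, a bHLH gene of the anterior presomitic mesoderm, was among the 5 genes with the largest ratios (4.89, 4.32 to 5.51), after MYF5 (7.34), GSX2 (5.8), FMOD (5.73) and C1QTNF3 (5.49), where 1.43% of genes tested had a ratio of 2 or more. Whether molecules of the overlapping long non-coding gene were counted for MYF6 was not tested.

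MYOG, the differentiation factor, was not higher in somite-like cells. Of its 32 molecules, 14 were in surface ectoderm-like cells (0.346 CPM, 0.189 to 0.58), 8.49 times (3.91 to 18.1) the level in all other cells, and 4 in somite-like cells (0.0541 CPM, 0.0147 to 0.138, against 0.0685 CPM in all other cells). The single MYOG cell was surface ectoderm-like, in cluster 7. Cluster 25, led by the epithelial genes OVAL, ZNF750, SCEL and KRT17, had the highest level at 1.01 CPM (0.404 to 2.07). In the 31 cells with any MYOG molecule, the largest ratios were those of SCEL (14.6, 11.7 to 18.0), OVAL (14.0) and KRT17 (13.7), where 6.07% of genes tested had a ratio of 2 or more. Of the 9 surface ectoderm markers 4 were at least 2-fold higher in these cells and their summed level was 1225 CPM against 506 CPM elsewhere, and of the 9 hindgut endoderm markers 4 were higher too, at 772 against 273 CPM. The 10 dermomyotome markers had none higher and 413 against 604 CPM. Of 32 sarcomere genes 3 were higher, each on 3 or 4 molecules, and 12 lower, 11 of them with no molecule, where 14.6% of all genes were lower. None of the 31 cells had a MYOD1 molecule (interval 0 to 11.2%), where 2.39% of all cells had 1 or more, so 31 cells cannot show a difference. The neighbouring gene PPFIA4, which ends 287 bases before MYOG, was at 0.144 CPM in cluster 25 and 2.29 CPM in other cells. The part of surface ectoderm or hindgut RNA or of counting in these molecules was not tested.

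**Figure D2:**
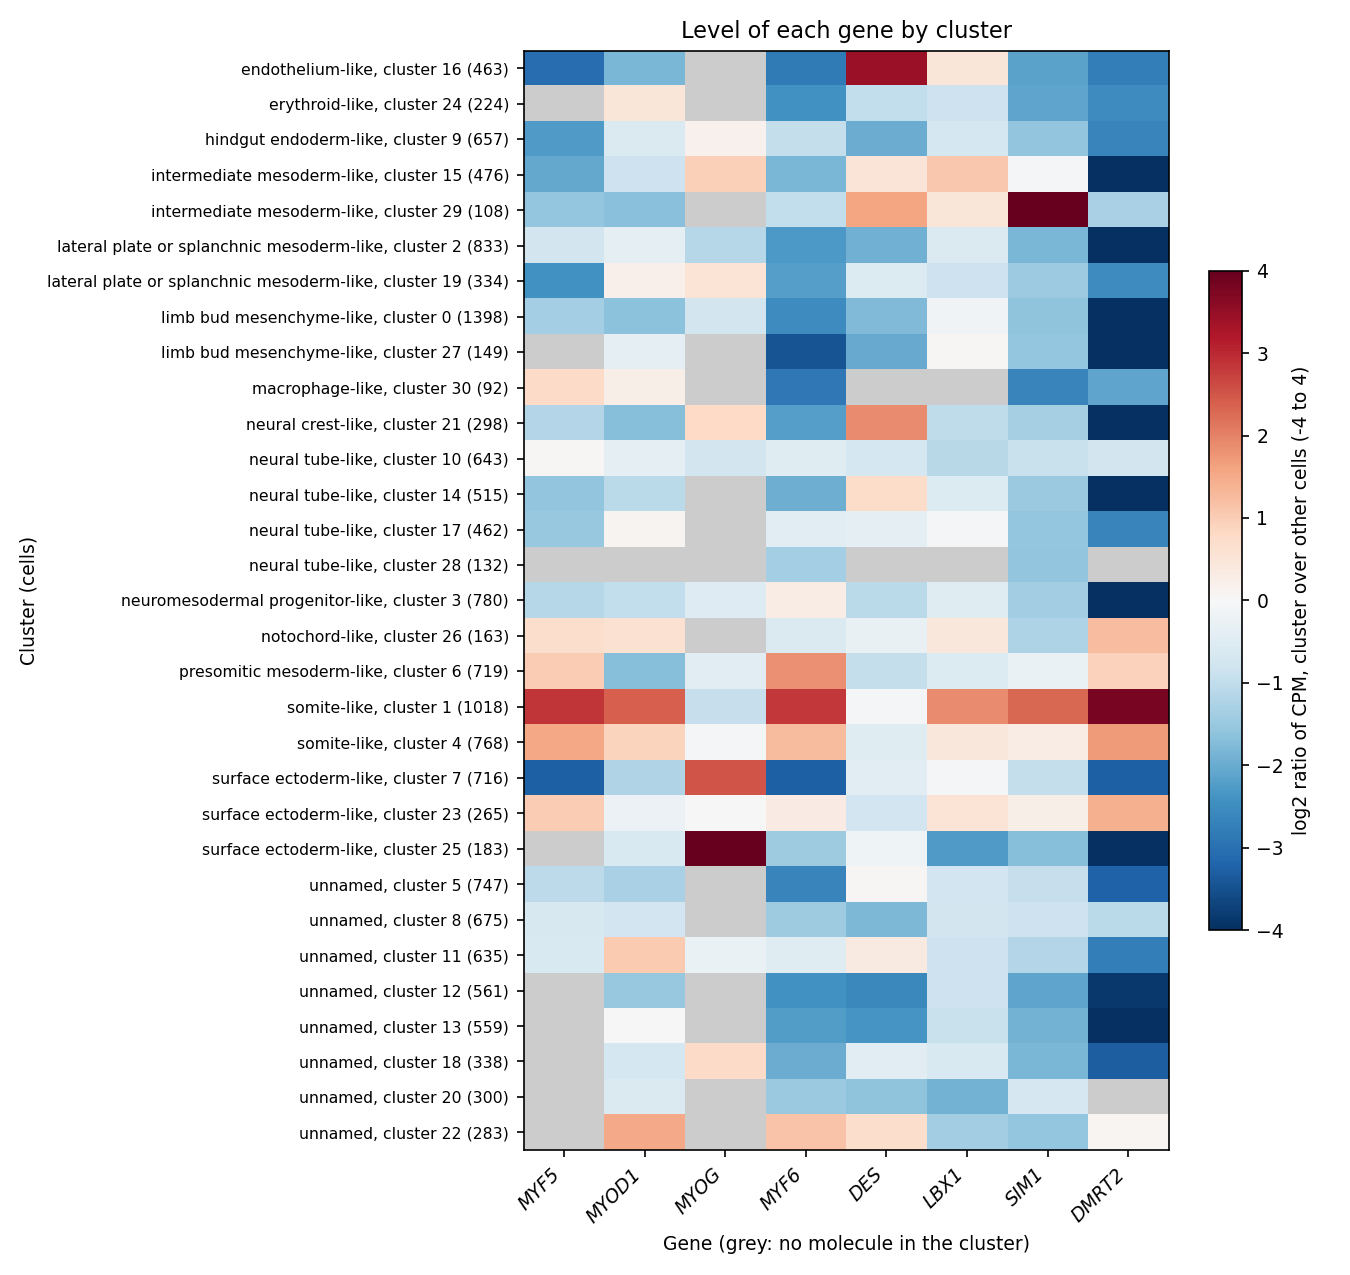
Level of each gene (columns) in each of 31 clusters (rows, cell number in brackets) as the log2 ratio of its CPM there to its CPM in all other cells; grey marks clusters with no molecule. Somite-like cluster 1 is high for MYF5, MYOD1, MYF6, LBX1, SIM1 and DMRT2 but not for MYOG or DES, which stand highest in clusters 25 and 16; SIM1 stands highest in cluster 29.

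DES encodes desmin, the intermediate filament of muscle cells, which is also made in some vessel wall cells. It lies on chromosome 7 (21794233 to 21798343) and had 1082 molecules, at most 11 in a cell, and 144 DES cells (0.929%, 0.784 to 1.09%). Its level over all cells, 2.24 CPM, lay within the interval of free RNA (2.71 CPM, 1.92 to 3.72). Its highest class level was that of endothelium-like cells, 18.6 CPM (16.5 to 20.8), 11 times (9.59 to 12.6) that in all other cells, then in neural crest-like cells at 7.89 CPM (6.15 to 9.97) and intermediate mesoderm-like cells at 4.05 CPM (3.25 to 4.99). These 3 intervals do not overlap. In somite-like cluster 1 it was at 2.14 CPM (1.63 to 2.76), 0.951 times (0.719 to 1.24) all other cells, and erythroid-like cells had 1.15 CPM (0.422 to 2.5).

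Of the 144 DES cells, 68 (47.2%) were endothelium-like, as were 40 of the 53 cells with 3 or more molecules and 13 of the 14 with 5 or more. Endothelium-like cells made up 463 of all 15494 cells, and 14.7% of them (11.6 to 18.2%) were DES cells. Of 224 erythroid-like cells 0 were, which allows up to 1.63%. The endothelial cadherin CDH5 was held by 47.9% of DES cells (39.5 to 56.4%) against 2.43% of other cells at the same depths. All 10 endothelium markers were at least 2-fold higher in DES cells, and the genes with the largest ratios were GPR183 (33.5), MMRN1 (29.0), CORO2B (28.2), APOLD1 (28.0) and CDH5 (27.8, 26.7 to 29.0). MRF genes were held by 6 of 144 DES cells (4.17%, 1.54 to 8.85%), where 2.17% of all cells were MRF cells. DES cells were deeper, with a median of 46035.5 molecules against 25928.5 in all cells. MEOX1 was held by 36 (25%, 18.2 to 32.9%) against 39.5%.

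The smooth muscle genes did not move together in DES cells. Of 6 tested, SMTN was higher (4.33, 3.75 to 4.98) and SYNPO2 lower (0.209, 0.141 to 0.299), in a comparison where 5.42% of 16780 genes were at least 2-fold higher and 7.89% at most 0.5-fold. ACTA2, smooth muscle actin, was at 0.51 (0.463 to 0.561) and TAGLN at 1.26 (0.845 to 1.8). The median log2 ratio of the list was -0.58 and that of all genes -0.06. Of 26 muscle differentiation genes 3 were higher in DES cells and 3 lower, with a median log2 ratio of -0.09. The higher ones were MEF2C (7.01, 6.58 to 7.46), MEF2D (3.59) and CDKN1A (2.19), and the lower ones CDH15, SMYD1 and VGLL3, each on 2 molecules; MEF2C is also used by endothelium and had its highest level, 334 CPM, in macrophage-like cells.

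**Figure D3:**
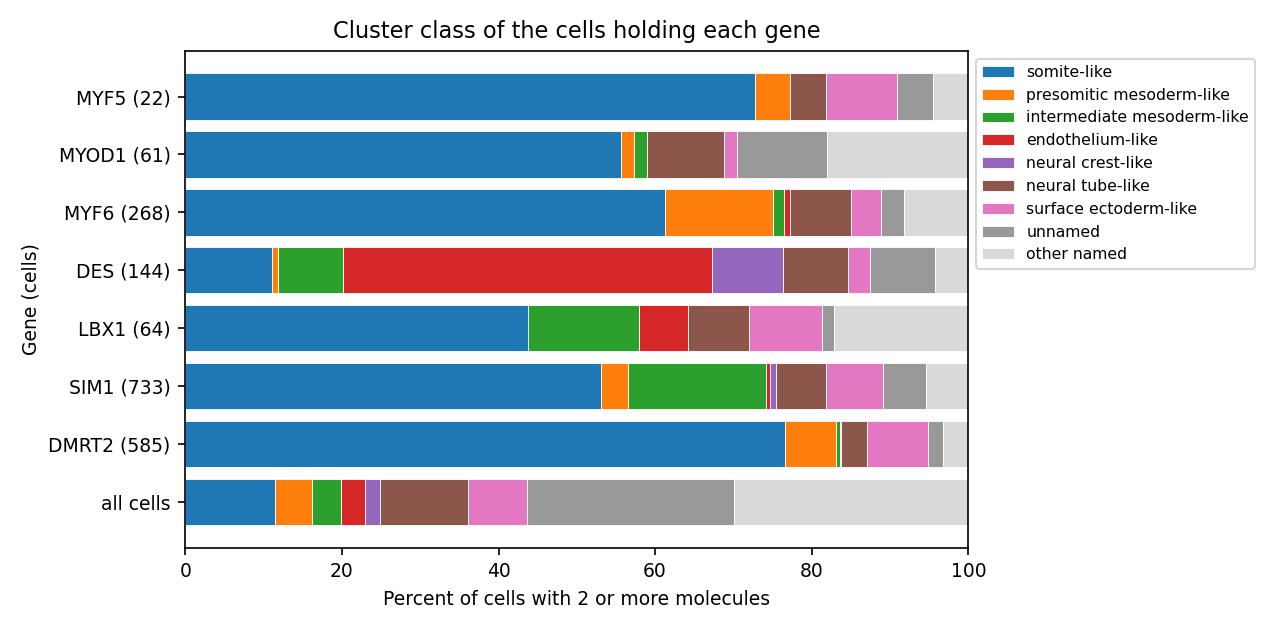
Share (x axis, percent) of the cells with 2 or more molecules of each gene that lie in each cluster class, with all cells in the bottom row; numbers in brackets are cells, and MYOG with its single cell is not drawn. In this clustering somite-like cells hold 76.6% of DMRT2 cells and 59.8% of all MRF cells, against as little as 37.6% and 35.4% in other clusterings; endothelium-like cells hold 47.2% of DES cells.

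Of the genes of the contractile apparatus 1 was higher in MRF cells, and 4 were in the small set of MYF5 cells. Of 51 listed sarcomere genes 37 had a column, and 32 had at least 200 molecules and entered the comparison of 336 MRF cells with all other cells. In that comparison 1.38% of 16780 genes were at least 2-fold higher and 5.42% at most 0.5-fold. Of the 32 sarcomere genes 1 was higher, MYL1, a fast myosin light chain (2.35, 1.62 to 3.3, on 36 molecules), and 3 were lower, LMOD3, TNNI2 and MYL3. Their median log2 ratio was -0.12, that of all genes -0.04, and the summed level 839 CPM in MRF cells and 846 CPM elsewhere. CSRP3 (1.89, 1.5 to 2.36) and TNNI1 (1.76, 1.61 to 1.93), the slow troponin I, were next, and both had their highest level in presomitic mesoderm-like cells.

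ACTC1 had 12 cells with 2 or more molecules, none of them an MRF cell (0 of 336, which allows up to 1.09%). TTN, the giant spring protein of the sarcomere, had 265 such cells, 9 of them MRF cells (2.68%, 1.23 to 5.02%, against 2.15% at the same depths). TNNT2 had 27 and MYL3 83, with no MRF cell among either. Not 1 of the 37 sarcomere genes had its highest cluster level in a somite-like cluster. The somite-like class was clusters 1 and 4 of 31, with 11.5% of cells. The share of all genes with their highest level there was not taken, so the count has no background. MYL1 reached its highest level, 16.2 CPM, in notochord-like cells, cluster 26. LDB3 (8.61 CPM), MYH1B (3.28 CPM) and MYBPC1 (1.43 CPM, on 7 molecules) were also highest there. A MYF5 cell of that cluster, with a depth of 129373, held 3 MYF5, 5 MYF6, 1 MYOD1, 3 DES and 8 TTN molecules. It also held 33 MEOX1 molecules, and no MYOG or ACTC1. Whether cluster 26 includes muscle cells or joined cells was not tested. The 22 MYF5 cells gave 4 higher sarcomere genes of 32 and 10 lower, 8 of these with no molecule, where 4.94% of all genes were higher and 18.5% lower. The 4 were MYL1 (5.98, 2.39 to 12.4, on 7 molecules), CSRP3 (2.97, 1.42 to 5.48), TNNI1 (2.4, 1.8 to 3.14) and TTN (2.19, 1.09 to 3.93). The 61 MYOD1 cells gave 1 higher, MYL1 (4.49, 2.3 to 7.93), and 4 lower, where 3.62% of all genes were higher and 9.49% lower. The 82 cells with MYF5, MYOD1 or both, whatever else they held, gave 2 higher, MYL1 (4.53, 2.61 to 7.34, on 17 molecules) and TNNI1 (2.13, 1.8 to 2.49), and 4 lower, where 2.73% of all genes were higher and 8.64% lower.

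Some genes tied to early muscle were higher in MRF cells. Of 26 tested muscle differentiation genes 3 were higher: MUSK (4.2, 3.47 to 5.05), the kinase that organises the neuromuscular junction, RBM24 (3.11, 2.95 to 3.28), a muscle splicing factor, and KLHL31 (2.80, 2.0 to 3.85). The 3 at most 0.5-fold were CACNB1, MB, which encodes myoglobin, and SMYD1, a myosin-assembly methyltransferase (0.145, 0.0175 to 0.527, on 2 molecules). Over all genes tested 1.38% were higher and 5.42% lower in MRF cells. Of the 35 with a column, MUSK and CACNG1, a calcium channel subunit, had their highest level in a somite-like cluster. Both were highest in cluster 1, MUSK at 13.6 CPM and CACNG1 at 0.471 CPM on 13 molecules. Here too the share over all genes was not taken. Of the 169 MUSK cells 35 were MRF cells, and of the 3 CACNG1 cells 0 were. RBM24 was highest in macrophage-like cells, at 335 CPM. Somite-like cells made up 59.8% of MRF cells and 11.5% of all cells. In somite-like cells as a whole MUSK was at 7.72, RBM24 at 90.8 and KLHL31 at 1.47 CPM. Over all cells they were at 2.03, 31.0 and 0.945 CPM. A difference between MRF cells and other somite-like cells was not tested. In MYF5 cells 5 of the 26 were higher and 6 lower, 4 of these with no molecule, where 4.94% of all genes were higher and 18.5% lower. The shares over all genes in MYOD1 cells were 3.62% higher and 9.49% lower. In MYOD1 cells 2 were lower, CDKN1A and SMYD1, and 7 higher: KLHL31 (6.34, 3.66 to 10.3), MUSK (5.71, 3.91 to 8.07), CACNA1S (3.61, on 6 molecules), RBM24 (3.48), MEF2B and TRIM55 on 3 and 4 molecules, and CKB (2.23, 2.03 to 2.44), the brain-type creatine kinase. Acetylcholine receptor subunits, which mark differentiated fibres, were below 200 molecules and not compared as ratios: CHRNA1 had 88 molecules, CHRND 21 and CHRNG 10. CHRNA1 (1.84 CPM, on 9 molecules) and CHRND (0.615 CPM, on 3) were highest in notochord-like cluster 26, as MYL1 was. CHRNG was highest in surface ectoderm-like cluster 25, on 1 molecule. Of the 7 CHRNA1 cells 2 were MRF cells, where 2.17% of all cells were. The 1 CHRND cell was not an MRF cell, and no cell held 2 or more CHRNG molecules. These counts are small, and the CHRNA1 share was not set beside cells of the same depths.

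Several dermomyotome and inducer genes were higher in MRF cells. Of 24 tested, 6 were at least 2-fold higher and 0 lower, with a median log2 ratio of 0.32 and a summed level of 2099 CPM against 982 CPM. Over all genes tested 1.38% were higher and 5.42% lower, with a median log2 ratio of -0.04. The 6 were MEOX1 (4.42, 4.35 to 4.49), TCF15 (3.68), MEOX2 (3.55), EYA2 (3.11), PAX7 (3, 2.88 to 3.13) and PAX3 (2.78, 2.65 to 2.92). PAX3 or PAX7 was held by 273 of 336 MRF cells (81.2%, 76.7 to 85.3%). The share of other cells holding either was not taken. Markers of other somite parts moved as well: 6 of 8 somite markers, 3 of 7 sclerotome markers and 4 of 6 presomitic mesoderm markers were at least 2-fold higher. NKX3-2 was held by 12.2% of MRF cells (8.9 to 16.2%) against 2.79%.

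**Figure D4:**
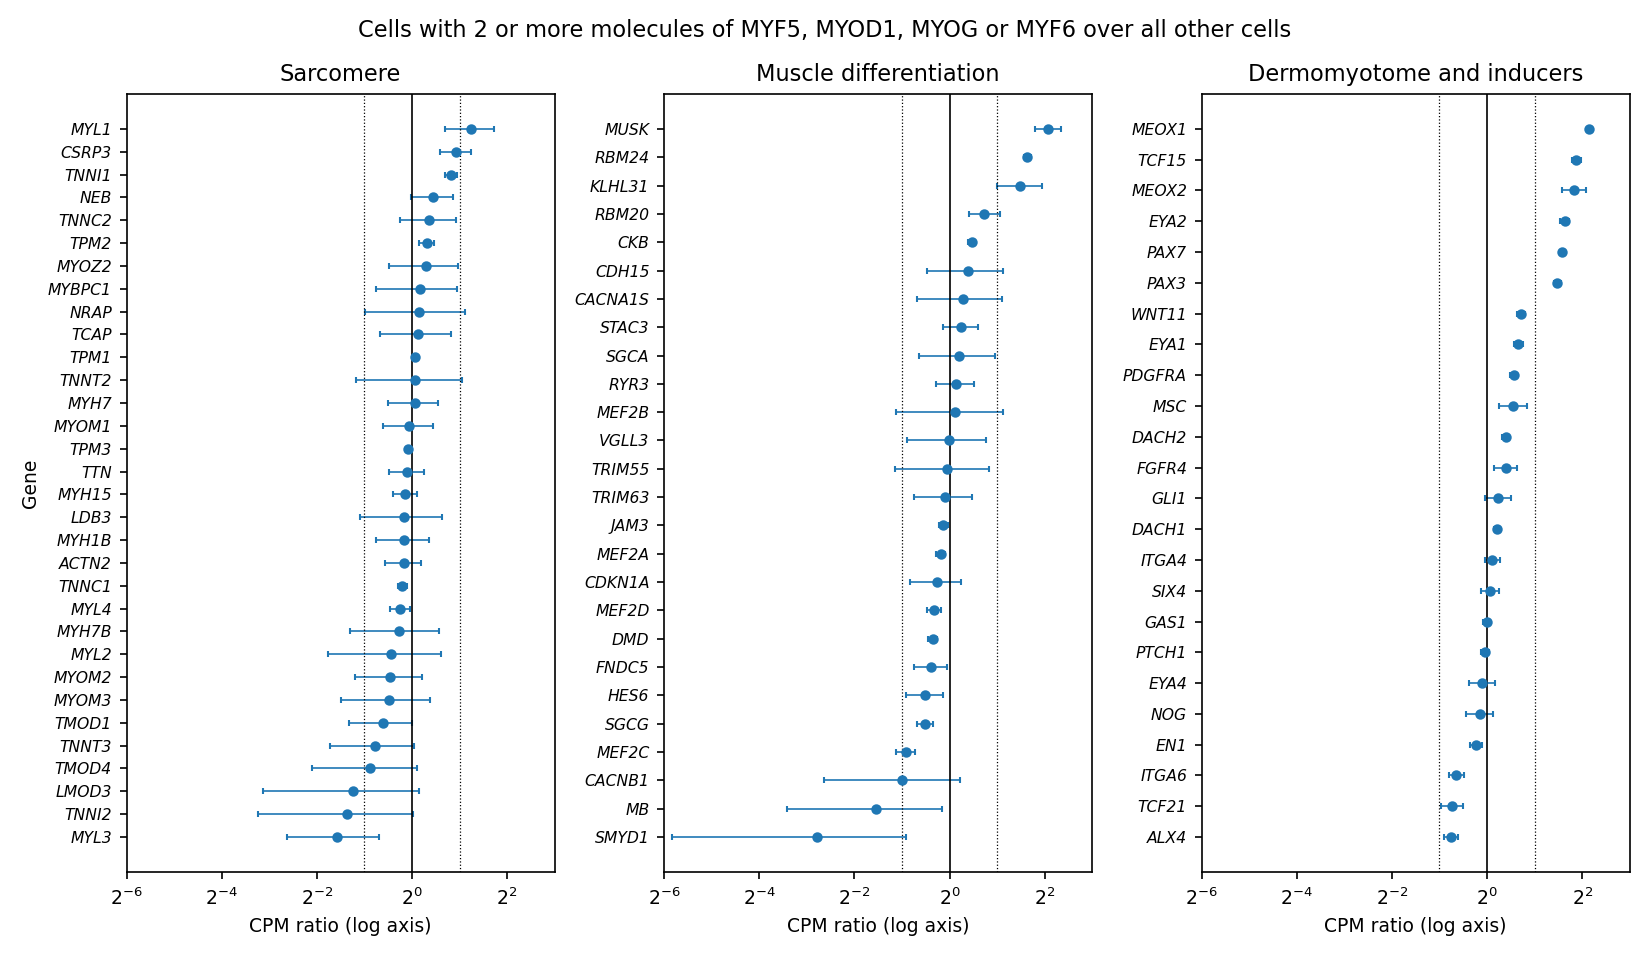
CPM ratio of MRF cells over all other cells (x axis, log scale) with exact 95% intervals for 32 sarcomere, 26 muscle differentiation and 24 dermomyotome and inducer genes; dotted lines mark ratios of 0.5 and 2. MYL1 is the sole sarcomere gene past 2, against MUSK, RBM24 and KLHL31 in the middle panel and 6 genes in the right panel.

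DMRT2, a zinc finger gene of the presomitic mesoderm and dermomyotome, was found with somite genes. It lies on chromosome Z (26545491 to 26549900) and had 2627 molecules, at most 15 in a cell, with 78.2% of them in its 585 DMRT2 cells (3.78%, 3.48 to 4.09%). Of these, 569 (97.3%, 95.6 to 98.4%) held MEOX1 against 34.3% of other cells at the same depths, 499 (85.3%) held PAX7 against 26.5%, 481 (82.2%) held PAX3 against 26.9% and 409 (69.9%) held TCF15 against 12.0%. RIPPLY2, which acts when somites form their boundaries, was held by 34.0% against 6.54%, and TBX6, a presomitic mesoderm factor, by 72.1% against 25.9%. MRF genes were held by 91 (15.6%, 12.7 to 18.8%), where 2.17% of all cells were MRF cells. The largest ratios were those of NPY (11.9, 11.5 to 12.3), CLDN2 (8.32), NTN1 (8.20, 8.05 to 8.35), RND2 (7.5) and ZAP70 (7.29).

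Somite-like clusters held 76.6% of DMRT2 cells, but 37.6% with another random seed of the clustering and 47.5% at resolution 0.5. By class DMRT2 was highest in somite-like cells at 25.3 CPM (24.1 to 26.5), 13.6 times (12.5 to 14.9) the level elsewhere, and 25.1% of them (23.1 to 27.2%) were DMRT2 cells, against 1 of 224 erythroid-like cells (0.446%, 0.0113 to 2.46%). Notochord-like cells (12.5 CPM, 9.57 to 16.1) and presomitic mesoderm-like cells (9.88 CPM, 8.56 to 11.3) followed, with overlapping intervals. Cluster 1 stood at 43.3 CPM and cluster 4 at 14.6 CPM. Surface ectoderm-like cluster 23 was at 13.8 CPM (12.0 to 15.8); its median depth was 53270 molecules, and it held the somite gene MEOX1 at 476 CPM together with the ectoderm gene WNT7A at 72.7 CPM, where cluster 7 of the same class had 12.7 and 222 CPM. The part of joined cells in cluster 23 was not tested. Its neighbour DMRT1, which ends 38565 bases before it, was also highest in cluster 1 (122 CPM, 6.30 times other cells, 6.05 to 6.55), whereas SMARCA2 on the other side was at 1.17 times. In DMRT2 cells 6 of 24 dermomyotome and inducer genes were at least 2-fold higher and 2 lower, TCF21 (0.454) and EN1 (0.429), where 2.03% of all genes were higher and 6.98% lower. Of 32 sarcomere genes 1 was higher, MYL1 (2.16, 1.59 to 2.88), and 3 were lower, MYL3, MYH15 and TNNT2.

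SIM1, a bHLH-PAS factor of the lateral dermomyotome that also acts in kidney and brain, was held by somite cells with MEOX1 and by cells with the kidney gene LHX1. It lies on chromosome 3 (70646809 to 70693397) and had 5099 molecules, at most 55 in a cell, and 733 SIM1 cells (4.73%, 4.4 to 5.08%). By level it was highest in cluster 29, an intermediate mesoderm-like cluster of 108 cells led by LHX1 and WNT9B, genes of the nephric duct, at 243 CPM (231 to 256), and 100 of those cells were SIM1 cells. Somite-like cluster 1 followed at 42.2 CPM (39.8 to 44.7), then cluster 4 at 12.7 CPM and cluster 23 at 12.4 CPM, which could not be told apart. By number, 389 of 733 SIM1 cells (53.1%) were somite-like.

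MEOX1 was held by 548 SIM1 cells (74.8%, 71.5 to 77.9%, against 36.3%) and LHX1 by 110 (15.0%, 12.5 to 17.8%, against 1.12%); 35 held both and 110 neither. Of the 69 cells with 10 or more molecules, 60 (87.0%) held LHX1, 60 lay in cluster 29 and 8 were somite-like. The 5 cells with the most SIM1 had 33 to 55 molecules and 37 to 136 LHX1 molecules. The genes with the largest ratios were those of cluster 29: LHX1 (60.6, 56.2 to 65.4), ADAM8 (30.5), TSPAN8 (17.0), WNT9B (16.4) and AvBD10 (14.4). Of 8 tested genes of its other known sites 4 were at least 2-fold higher, LHX1, UNCX (7.29), GATA3 (3.41) and PAX2 (2.85), and 1 was lower, OLIG3 (0.335), where 1.47% of all genes were higher and 3.17% lower. UNCX is also a listed somite marker and a leading gene of somite-like cluster 1, so it does not separate those sites from the somite. Of 24 dermomyotome and inducer genes 6 were higher and 0 lower, led by MEOX2 (4.60, 4.05 to 5.22). Erythroid-like cells had 1 SIM1 cell of 224 (0.446%).

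LBX1, the homeobox gene of migrating muscle precursors and of dorsal spinal interneurons, was found with SIM1. It lies on chromosome 6 (23802283 to 23805141), overlaps the gene LOC121113337, and had 654 molecules, at most 23 in a cell, and 64 LBX1 cells (0.413%, 0.318 to 0.527%). Of these, 33 (51.6%, 38.7 to 64.2%) held SIM1 against 9.53% of other cells at the same depths, 38 (59.4%, 46.4 to 71.5%) held PAX3 against 34.2%, and 25 held both. MSC, the bHLH repressor musculin, was held by 26.6% against 4.26%. DMRT2 (9.38%, 3.52 to 19.3%, against 7.09%) and MET (15.6%, 7.76 to 26.9%, against 15.4%), the receptor that releases precursors from the dermomyotome, did not differ beyond the counting interval. No LBX1 cell held MYOD1 (0 of 64, which allows up to 5.6%), where 0.394% of all cells were MYOD1 cells. MYF6 was held by 7 LBX1 cells (10.9%, 4.51 to 21.2%, against 3.68%).

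The 2 richest LBX1 cells, with 23 and 12 molecules, were in somite-like cluster 1 and held 19 and 11 SIM1 and 22 and 49 PAX3 molecules. By class LBX1 was at 2.74 CPM (2.38 to 3.15) in somite-like and 2.53 CPM (1.91 to 3.29) in intermediate mesoderm-like cells, which could not be told apart, then at 1.89 CPM (1.27 to 2.69) in endothelium-like cells, whose interval meets both. Erythroid-like cells had 0.766 CPM (0.209 to 1.96) and no LBX1 cell of 224, which allows up to 1.63%. The share of LBX1 cells in somite-like cells, 1.57% (1.04 to 2.26%), lay below that limit. Over all cells the level of 1.36 CPM lay within the interval of free RNA (1.28 CPM, 0.76 to 2.03). The same held for SIM1, at 10.6 CPM against 10.5 CPM in free RNA (8.91 to 12.4). It also held for DMRT2, at 5.44 CPM against 4.92 CPM (3.82 to 6.22). The neuronal genes ELAVL4 or TUBB3 were held by 92.2% of LBX1 cells against 90.6%. Since nearly all cells at these depths held them, this share cannot set neurons apart. Of 11 tested interneuron genes none was higher and 2 were lower, in a comparison where 1.74% of genes were higher and 11.1% lower. Of 10 migrating-precursor genes 0 were lower and 3 higher, PAX3 (2.77), EYA2 (2.24) and LBX2 (2.19). Of 32 sarcomere genes 1 was higher, MYL1 (2.26, 0.969 to 4.49), and 10 were lower. The largest ratios over all genes were those of CKMT2 (8.34, 5.33 to 12.5), the sarcomeric mitochondrial creatine kinase, NGFR (4.84), SIM1 (4.22), C1QTNF3 (4.18) and MSC (3.95).

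**Figure D5:**
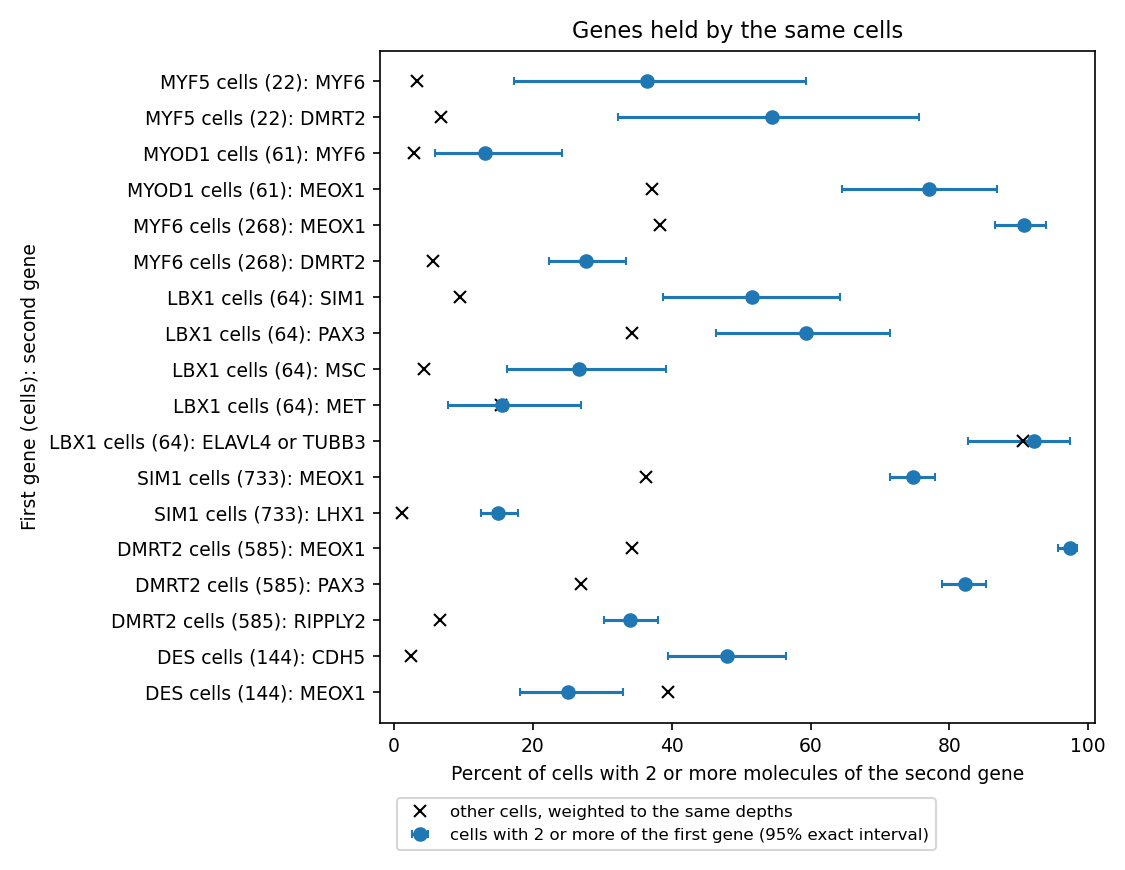
Share (x axis, percent) of the cells holding a first gene that also hold a second, with exact 95% intervals (blue), and the share of other cells weighted to the same depths (crosses). LBX1 cells lie above the crosses for SIM1, PAX3 and MSC and on them for MET and for ELAVL4 or TUBB3. ELAVL4 or TUBB3 was held by nearly all cells at these depths, so that share cannot set neurons apart. Of DMRT2 cells, 97.3% held MEOX1.

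Since the classes differ in depth, shares were also taken after thinning every cell to 4000 molecules, where the share of cells with at least 1 molecule was compared with that of erythroid-like cells. In somite-like cells it was 0.784% (0.429 to 1.31%) for MYF5, 1.29% (0.818 to 1.93%) for MYOD1, 4.54% (3.62 to 5.61%) for MYF6, 10.8% (9.4 to 12.3%) for DMRT2, 10.9% (9.46 to 12.4%) for SIM1 and 0.672% (0.348 to 1.17%) for LBX1. In the 224 erythroid-like cells it was 0 for MYF5 and LBX1 (up to 1.63%). There it was 0.446% (0.0113 to 2.46%) for MYOD1, DMRT2 and SIM1 and 0.893% (0.108 to 3.19%) for MYF6. For DES it was 7.56% (5.32 to 10.4%) in endothelium-like and 1.79% (0.489 to 4.51%) in erythroid-like cells. At this equal depth MYF6, DMRT2, SIM1 and DES stood clear of erythroid-like cells. For MYF5, MYOD1 and LBX1 these shares showed no detectable difference from this class of 224 cells. By CPM without thinning, MYF5 and LBX1 did differ. MYF5 was at 0 (0 to 0.706) in erythroid-like and 1.80 (1.51 to 2.13) in somite-like cells. LBX1 was at 0.766 (0.209 to 1.96) and 2.74 (2.38 to 3.15). The MYOD1 intervals overlapped. In the thinned shares MYF5 and MYOD1 stood clear of the 1547 limb bud mesenchyme-like cells, which had 0 for each (interval 0 to 0.238%). LBX1 did not, at 0.582% there (0.266 to 1.1%). The largest LBX1 share was 1.37% (0.593 to 2.68%), in intermediate mesoderm-like cells, whose interval meets that of somite-like cells. Endothelium-like (0.864%, 0.236 to 2.2%) and presomitic mesoderm-like cells (0.695%, 0.226 to 1.62%) also had larger values than somite-like cells, with overlapping intervals. In neural tube-like cells MYF5 and MYOD1 were both at 0.171% (0.0353 to 0.5%), which meets the somite-like interval of MYF5 but not that of MYOD1. No MYOG molecule remained in somite-like cells (0 of 1786, interval 0 to 0.206%).

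The lipid barcodes gave a last division, whose meaning the labels do not state. A cell was given a barcode when that barcode had at least 10 molecules and 3 times the next; 3 barcodes had cells in this way, SBC2 with 3047 cells, SBC3 with 4554 and SBC7 with 2225, and 5668 cells had none. In somite-like cells DMRT2 was at 33.5 CPM (28.8 to 38.8) with SBC2, 25.6 (23.9 to 27.3) with SBC3 and 9.50 (8.02 to 11.2) with SBC7. SIM1 followed at 26.2, 25.1 and 10.2 CPM, and the 4 MRF genes together at 17.3 (14.0 to 21.2), 14.7 (13.5 to 16.1) and 9.70 CPM (8.2 to 11.4). LBX1 went another way, with 0.744 CPM (0.203 to 1.91, on 4 molecules) for SBC2, 2.61 (2.09 to 3.21) for SBC3 and 1.64 (1.06 to 2.42) for SBC7. The median depth of these somite-like cells was 13973, 45324.5 and 58251 molecules. Somite-like cells with no barcode (587 cells, median 28211 molecules) had DMRT2 at 34.8 CPM (32.2 to 37.5) and LBX1 at 4.4 CPM (3.52 to 5.43). Each barcode is 1 pool, and tissue, treatment, depth and the split between clusters 1 and 4 cannot be told apart. The sex of the cells was not taken into account, and DMRT2 lies on chromosome Z.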

How the data were processed

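The authors deposited 1 table of counts, whole numbers of distinct molecules per gene and cell barcode, not normalized. Per the file headers it was made with the BD Rhapsody whole-transcriptome pipeline 1.11 on GRCg7b with Ensembl release 107, keeping intronic reads and fixing 60000 putative cells. Nuclear RNA therefore adds to the counts, and many barcodes need not hold a cell. The submitters' processing notes name R 3.6.2 and Seurat. The 8 genes and the gene lists were chosen with earlier results of these data known.

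Cells with at least 4000 gene molecules were scaled, log-transformed and clustered from 2000 variable genes, 30 principal components and 15 neighbours with Leiden at resolution 1 (scanpy 1.11.5, leidenalg 0.10.2, Python 3.11.15), leaving out the 8 genes and the sarcomere and muscle differentiation lists. Clusters were named for the class whose listed markers rose most, given 3 or more markers past 2-fold. No doublet caller was used, so cells that joined 2 types remain; leaving out the 10% deepest cells is an alternative. Cells with 2 or more molecules of a gene were summed and compared with all other cells as a ratio of CPM, for genes with at least 200 molecules, with exact binomial intervals; ratios of 2 and 0.5 were the thresholds for higher and lower. Shares were set beside those of other cells weighted over 20 depth bins. The ratio calculation was tested on simulated data. Named genes are the 8, per list the 5 largest and 2 smallest ratios, and per gene the 5 largest ratios among named genes held by at least 10% of its cells; other list genes past a threshold, marker genes held with a member, genes below 200 molecules, those singled out by cluster, neighbouring genes and the 31 cells with any MYOG molecule were added after values were seen. Some listed genes are not reported here and are left out of the list counts. Coordinates are those of RefSeq on GRCg7b, where all 8 symbols matched.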

Additional observations from a re-analysis of the deposited data

How the results depend on the processing

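Counts of cells moved with the threshold and the depth. The share of MRF cells (2.17%) was 9.89% with 1 or more molecules, 0.774% with 3 or more, 2.60% with at least 10000 and 1.89% with at least 2000 gene molecules per cell, 2.65% with at most 20% mitochondrial molecules, 1.66% without the 10% deepest cells and 0.116% after thinning to 4000 molecules. The MYOG share (0.00645%) was 0.2% with 1 or more molecules and 0% with 3 or more or after thinning. Higher sarcomere genes in MRF cells (1) numbered 0 with 1 or more molecules or with genes of at least 1000 molecules, and 2 with 3 or more molecules or without the deepest cells. LBX1 cells with PAX3 (59.4%) fell to 33.0% with 1 or more molecules.

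Shares by class name moved with the clustering. The cluster with most MRF cells was somite-like in every clustering run, with 34.2% of them, and 25.6% with another random seed, 24.8% with at most 20% mitochondrial molecules and 23.2% at resolution 2. Under another seed, at most 20% mitochondrial molecules, resolution 0.5 and resolution 2, in that order, somite-like clusters held 44.9, 46.5, 35.4 and 44.9% of MRF cells (59.8%), 37.6, 47.4, 47.5 and 42.1% of DMRT2 cells (76.6%), and 45.3, 45.3, 38.3 and 41.5% of SIM1 cells (53.1%); much of the rest went to presomitic mesoderm-like or unnamed clusters. Intermediate mesoderm-like clusters held 17.7% of SIM1 cells, 13.6% with another seed and 14.5% at resolution 0.5. Endothelium-like clusters held 46.8 to 47.2% of DES cells in every clustering run. The cause was not tested. The shares added after the data were seen are these class shares and the sarcomere count. The planned median of sarcomere genes in MYOG cells has no finite value, since only 1 cell qualified and 28 of 32 genes had no molecule in it; its alternatives were not run. No paired analysis was possible because all cells form 1 pooled sample.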

Other observations

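Several genes named for muscle were highest in other classes of these cells. CSRP3 and TNNI1 had their highest level in presomitic mesoderm-like cluster 6, at 19.5 and 45.7 CPM, against 4.26 and 27.2 CPM in somite-like cells. MYL1 was at 16.2 CPM in notochord-like and 1.80 CPM in somite-like cells. TNNT2 and SMYD1, both also of early heart, were highest in unnamed cluster 13, at 2.23 and 6.53 CPM. That cluster was led among others by TBX5, TBX20 and ACTA2. The sarcomere genes ACTC1, TNNT3, TNNC1 (195 CPM), MYL2, MYOM1 (14.0 CPM), MYOM2, MYOZ2 and XIRP1 were also highest in cluster 13. So were the muscle differentiation genes JAM3, RYR3 and TRIM55. MYH7B was highest in lateral plate or splanchnic mesoderm-like cluster 2 at 4.2 CPM. TTN was highest at 18.5 CPM in unnamed cluster 12, whose median depth was 8800 molecules.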
